A study of Homo sapiens with 8 samples.

Results

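Peaks of YAP, TAZ, TEAD1 and TEAD4 were examined around 7 genes of the Notch pathway in HuCCT1 cells, an established line from a human cancer of the bile duct (cholangiocarcinoma). The genes were the receptors NOTCH1, NOTCH2 and NOTCH3, the ligands JAG1 and JAG2, and the target genes HES1 and HEY1. A peak belonged to a locus when its centre lay within 100 kb of the gene's transcription start on the hg19 build, whatever its score. This gave 52 of the 51828 peaks in 5 deposited lists: 34 of 38186 TEAD1 peaks, 17 of 12188 TEAD4 peaks, 1 of 847 peaks of HA-tagged YAP5SA (HA-YAP5SA), 0 of 454 peaks of the YAP antibody and 0 of 153 TAZ peaks. The member farthest from a start was a TEAD1 peak 98.4 kb from JAG2 with a score of 263, and the nearest peak outside the limit was a TEAD1 peak 101.7 kb from HEY1 with a score of 244.

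Each list came from 1 chromatin immunoprecipitation and sequencing (ChIP-seq) library of HuCCT1 cells: TEAD1, TEAD4, YAP, TAZ (the product of WWTR1), and YAP5SA precipitated through its HA tag. YAP5SA is a form of YAP in which alanine replaces the serines that LATS kinases phosphorylate. The other libraries were an input, an unrelated IgG, and a GFP library, which the series' design text describes as the background control of the HA precipitation. No peak list of these 3 libraries was analysed here. The labels give no treatment and do not say whether the TEAD and YAP libraries came from cells carrying the tagged form. There was no second library of any antibody, so no difference has a replicate check, no test was made, and how deeply each library was sequenced is unknown. Each list held only peaks with the authors' score of about 80 or more (lowest values 80 to 80.18), so weaker binding would not be listed. Scores were compared only within a list, as a rank or as a percentile in which 100 is the highest score. Intervals are exact binomial ones at 95%; they reflect the counting of peaks alone, and peaks of 1 locus are not independent.

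Notch receptors are cut when a ligand of a neighbouring cell, such as JAG1 or JAG2, binds them. Their freed intracellular part then joins the DNA-binding factor RBPJ and switches on targets such as HES1 and HEY1, which encode transcriptional repressors. In the liver this pathway is known for its role in forming bile ducts, and inherited loss of JAG1 or NOTCH2 function causes Alagille syndrome, in which bile ducts are too few. YAP and TAZ are coactivators of the Hippo pathway that reach DNA mainly through TEAD factors, and in mouse liver Notch2 has been described as a gene that YAP acts on through TEAD.

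The promoters of NOTCH2 and HES1 are shown for their closeness to peaks: the NOTCH2 start was the only one of the 7 covered by a peak, and the HES1 start had the next nearest TEAD peaks. The sequences are the 250 bases before each RefSeq start in GRCh38.p14, 5′ to 3′ on the gene's strand (NOTCH2 chr1:120069663-120069912, minus strand; HES1 chr3:194135898-194136147, plus strand). The peaks are on hg19, and the RefSeq start may differ from the hg19 start used here by some bases. Capitals mark TGGGAA, the core of the RBPJ motif, on either strand.
NOTCH2: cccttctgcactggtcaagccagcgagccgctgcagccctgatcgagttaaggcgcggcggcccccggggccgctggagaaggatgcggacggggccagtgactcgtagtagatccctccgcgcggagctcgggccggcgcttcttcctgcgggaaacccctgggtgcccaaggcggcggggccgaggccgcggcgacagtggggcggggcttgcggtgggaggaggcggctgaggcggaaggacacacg
HES1: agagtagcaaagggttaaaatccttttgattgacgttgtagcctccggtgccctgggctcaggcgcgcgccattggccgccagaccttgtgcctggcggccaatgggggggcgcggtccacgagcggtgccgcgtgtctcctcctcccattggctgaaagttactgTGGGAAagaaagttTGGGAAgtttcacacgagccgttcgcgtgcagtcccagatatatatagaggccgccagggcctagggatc
The search also covered GGAATG, the core of the TEAD motif, on either strand. HES1 held 2 copies of TGGGAA on its own strand, beginning 84 and 70 bases before the start. At least 2 matches to TGGGAA were found in 2.90% of 35116 promoters of the same length, and at least 1 in 20.8%. Neither motif matched in the NOTCH2 window, and GGAATG matched in neither sequence, against 11.9% of all promoters. The TEAD4 peak over the NOTCH2 start was 1512 bp wide and centred 0.64 kb downstream, so most of it lay outside the printed window. The nearest TEAD1 peak did not reach the start, and the sequences of the peaks were not searched. Of the 7 genes, 6 had an entry in the RefSeq promoter table, and none of those 6 held GGAATG. The GC content of these 6 windows was 59.2 to 81.6%, against a median of 58% over all promoters. The 11.9% was not matched for GC content, and 6 windows are too few to set against it. HEY1 had no entry.

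All 7 loci had at least 2 TEAD1 peaks, and 6 of 7 had a TEAD4 peak. NOTCH2 had 13 TEAD1 peaks, HES1 6, JAG2 4, NOTCH1 3, NOTCH3 3, HEY1 3 and JAG1 2. For TEAD4 the counts were 5 at NOTCH2, 5 at JAG2, 3 at HES1, 2 at NOTCH1, 1 at NOTCH3, 1 at JAG1 and 0 at HEY1. Among 15473 windows of 200 kb laid end to end along the chromosomes, 66.6% held a TEAD1 peak, 38.4% held a TEAD4 peak and 4.87% held an HA-YAP5SA peak. These windows are not centred on gene starts and include assembly gaps. They held 2.46 TEAD1 peaks on average (median 2), so NOTCH1, NOTCH3, JAG1 and HEY1, at 2 or 3 peaks, lay near the average window. At least 2 TEAD1 peaks, as at all 7 loci, were held by 50.1% of windows, and at least 3 by 37.7%. NOTCH2 had the highest TEAD1 count of the 7 loci, and 0.937% of windows held 13 or more TEAD1 peaks. The 5 TEAD4 peaks of NOTCH2 and of JAG2 were matched or passed by 2.60% of windows. HES1, at 6, was matched or passed by 13.9% of windows.

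**Figure D1:**
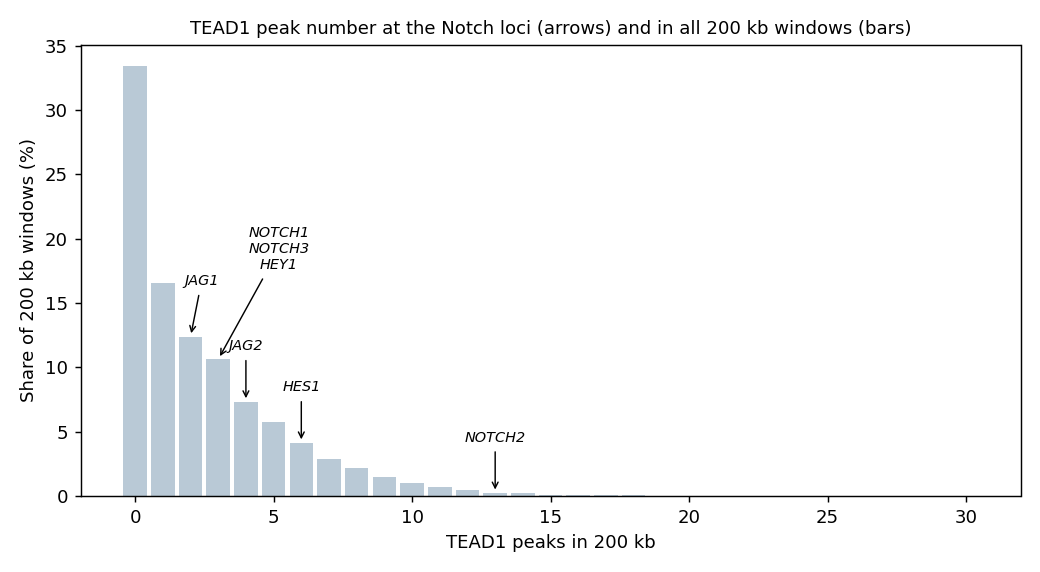
Bars give the share of 15473 windows of 200 kb (y axis, %) by their number of TEAD1 peaks (x axis), and arrows mark the count within 100 kb of each gene start. NOTCH2, with 13 TEAD1 peaks, lies in the tail that holds 0.937% of windows, and the loci with 2 or 3 peaks lie near the average of 2.46.

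**Figure D2:**
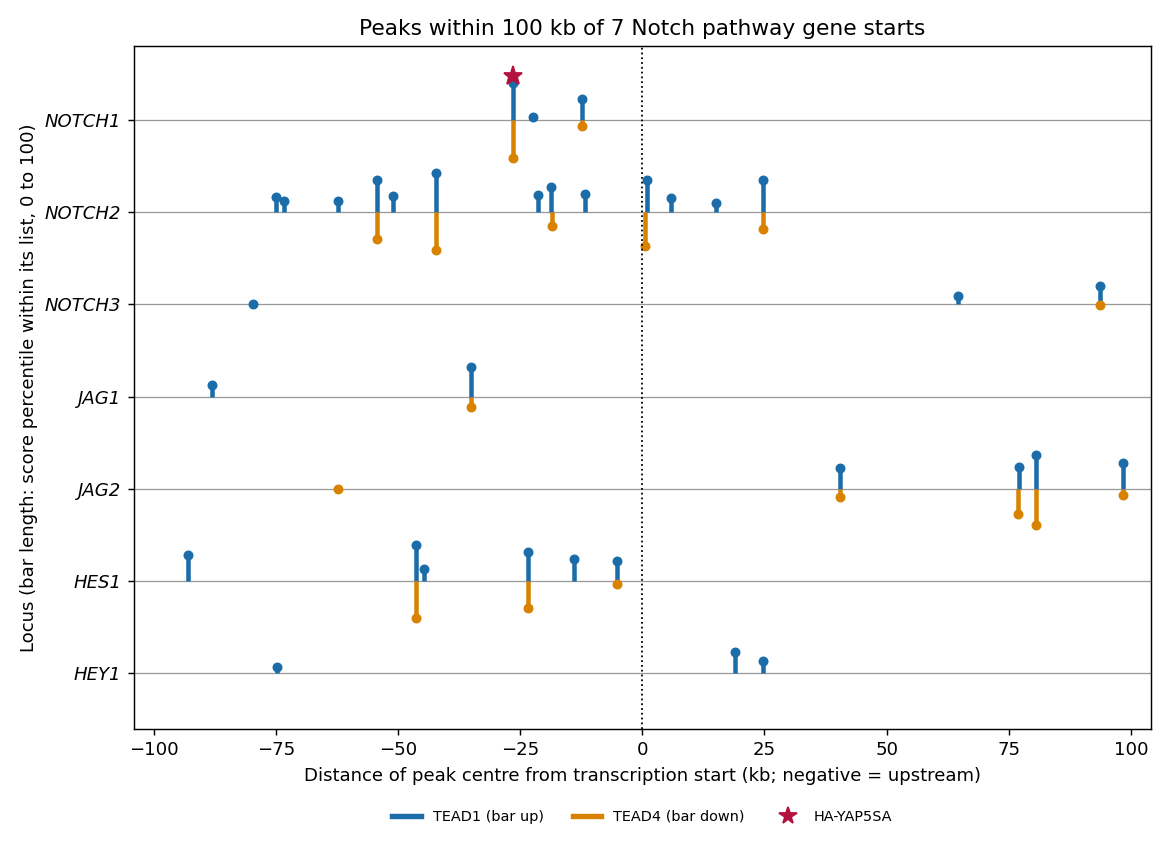
Peaks are placed by the distance of their centre from the gene start (x axis, kb, negative values upstream), with TEAD1 bars pointing up, TEAD4 bars pointing down and a star for HA-YAP5SA. The length of a bar is the score percentile within its list, and a dot marks its tip. The single HA-YAP5SA peak is at NOTCH1, and the bars at HES1 are all upstream of the start.

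Among the receptors, NOTCH2 carried the most peaks and the one nearest a start. Its 13 TEAD1 peaks spanned 100.3 kb on chromosome 1. Of these, 9 lay upstream of the start and 4 downstream, on the side of the gene. The downstream TEAD1 peaks were centred 1.02, 5.86, 15.1 and 24.6 kb from the start. Whether these fall in exons or introns was not assigned, since no hg19 annotation was used here. The start of NOTCH2 and the sequence around it have near-identical partial copies (the NOTCH2NL genes) elsewhere on the same chromosome. No source used here says how reads that match several places were treated, so the peaks of this locus are uncertain to that extent.

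The NOTCH2 start at position 120612317 lay inside a TEAD4 peak (120610926 to 120612437, score 388, rank 1633 of 12188). That peak was 1512 bp wide, wider than or as wide as 99.8% of TEAD4 peaks, whose median width was 352 bp. The TEAD1 peak beside it (120610780 to 120611817, score 461, rank 6217 of 38186) ended 500 bp short of the start. The centres of this pair were 383 bp apart, the largest gap among the overlapping TEAD1 and TEAD4 peaks of the 7 loci, where the median was 49.8 bp.

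The highest-scoring TEAD1 peak of all 7 loci lay 42.3 kb upstream of NOTCH2 (120654150 to 120655003, score 1780, rank 210 of 38186). It overlapped a TEAD4 peak (120654284 to 120654777, score 791, rank 300 of 12188) and no peak of HA-YAP5SA or YAP. TAZ overlapped 0 of all 38186 TEAD1 peaks. Among the 210 TEAD1 peaks with a score at least as high, all overlapped TEAD4, 150 (71.4%) overlapped HA-YAP5SA and 37 (17.6%) overlapped YAP. The NOTCH2 site, the lowest-scoring of the 210, was among the other 60, without HA-YAP5SA. The nearest HA-YAP5SA peak lay 3395 kb from the NOTCH2 start and the nearest YAP peak 740 kb from it. The remaining NOTCH2 pairs of TEAD1 and TEAD4 were 54.3 and 18.7 kb upstream and 24.6 kb downstream, with TEAD1 scores of 418, 253 and 425. The 8 NOTCH2 peaks of TEAD1 alone scored between 112 and 168, all below the list's median of 177.

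NOTCH1 had the single site where tagged YAP was listed. An HA-YAP5SA peak lay 26.5 kb upstream of the start on chromosome 9 (139466644 to 139466804). Its score of 102 ranked 525 of 847, below the list's median of 114, and its width was 161 bp against a median of 224 bp. The peak was centred 9.5 bp from the centre of a TEAD1 peak (139466305 to 139467124, score 945, rank 1665 of 38186) and 26 bp from that of a TEAD4 peak (139466447 to 139467053, score 911, rank 205 of 12188). Over the whole HA-YAP5SA list, the median distance to the centre of an overlapping TEAD1 peak was 67.5 bp. The TEAD4 peak was the highest-scoring TEAD4 peak of the 7 loci. Among the 1666 TEAD1 peaks that scored at least as high as the NOTCH1 peak, nearly all of them higher, 512 (30.7%) overlapped HA-YAP5SA. The other NOTCH1 sites were closer to the start and scored lower. One lay 12.4 kb upstream with a TEAD1 score of 194 and a TEAD4 score of 96, and the other 22.4 kb upstream with a TEAD1 score of 88.8 and no TEAD4. No TEAD peak lay closer to the NOTCH1 start than the one at 12.4 kb.

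NOTCH3 had the lowest scores of the receptors. Its TEAD1 peaks scored 170, 109 and 81.9, all below the list's median, and were 93.6 kb downstream, 64.6 kb downstream and 79.6 kb upstream of the start on chromosome 19. The single TEAD4 peak, at the 93.6 kb site, scored 80.5 and ranked 12111 of 12188, so it was close to the lowest score listed. The nearest TEAD1 peak of NOTCH3 was the most distant of the 7 genes.

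The ligands differed in where their sites lay. JAG1 had 2 TEAD1 peaks on chromosome 20, both upstream. The nearer one, 35 kb from the start (10689363 to 10689980, score 346, rank 9107 of 38186), overlapped a TEAD4 peak of 189 bp with a score of 113, and the other, 88 kb away, scored 122 and had no TEAD4. A further 8 TEAD1 peaks lay between 100 and 200 kb from the JAG1 start, with scores from 83.7 to 367.

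JAG2 had its 4 TEAD1 peaks downstream of the start on chromosome 14, at 40.6, 77.0, 80.7 and 98.4 kb, and each overlapped a TEAD4 peak. All 4 scored above the median of the TEAD1 list. The highest (105554025 to 105554979, score 557, rank 4691 of 38186) lay on a TEAD4 peak with a score of 529 and rank 868 of 12188. JAG2 also held the only TEAD4 peak of the 7 loci without TEAD1. It lay 62.2 kb upstream (105696774 to 105697945), with a score of 80.8, rank 12084 of 12188, and a width of 1172 bp, which 99.7% of TEAD4 peaks did not exceed. In GRCh38 the 100 kb around the JAG2 start also reach NUDT14, BRF1 and BTBD6. Peaks within 100 kb were therefore not assigned to a gene by their distance.

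Of the target genes, HES1 had all 6 of its TEAD1 peaks upstream of the start on chromosome 3, between 5.19 and 93.0 kb away. The highest lay 46.4 kb upstream (193807146 to 193807896, score 834, rank 2216 of 38186) on a TEAD4 peak with a score of 602 and rank 640 of 12188. No HA-YAP5SA peak was listed there. Of the 2217 TEAD1 peaks scoring at least as high, nearly all of them higher, 569 (25.7%) had one. The share rose with TEAD1 score, to 71.4% among the 210 peaks scoring at least as high as the highest NOTCH2 peak. The 25.7% thus reflects mostly stronger peaks, and the share at the HES1 peak's own score was not computed. A second pair lay 23.4 kb upstream, with a TEAD1 score of 326 and a TEAD4 score of 237. The pair nearest to the start, 5.19 kb upstream of it and so outside the printed promoter with its 2 RBPJ cores, scored 180 for TEAD1 and 88.0 for TEAD4. Farther out, 162 kb upstream and beyond the limit used here, a TEAD1 peak scored 1088 and ranked 1175 of 38186, above every TEAD1 peak within the HES1 locus.

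HEY1 was the only one of the 7 loci with TEAD1 and no TEAD4. Its 3 TEAD1 peaks on chromosome 8 scored 195, 127 and 99.6, at 19.0 kb downstream, 24.7 kb downstream and 74.7 kb upstream. The highest ranked 17383 of 38186, above the list's median, and the others fell below it. The nearest TEAD4 peak was 318 kb from the HEY1 start, and the nearest HA-YAP5SA peak 322 kb.

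**Figure D3:**
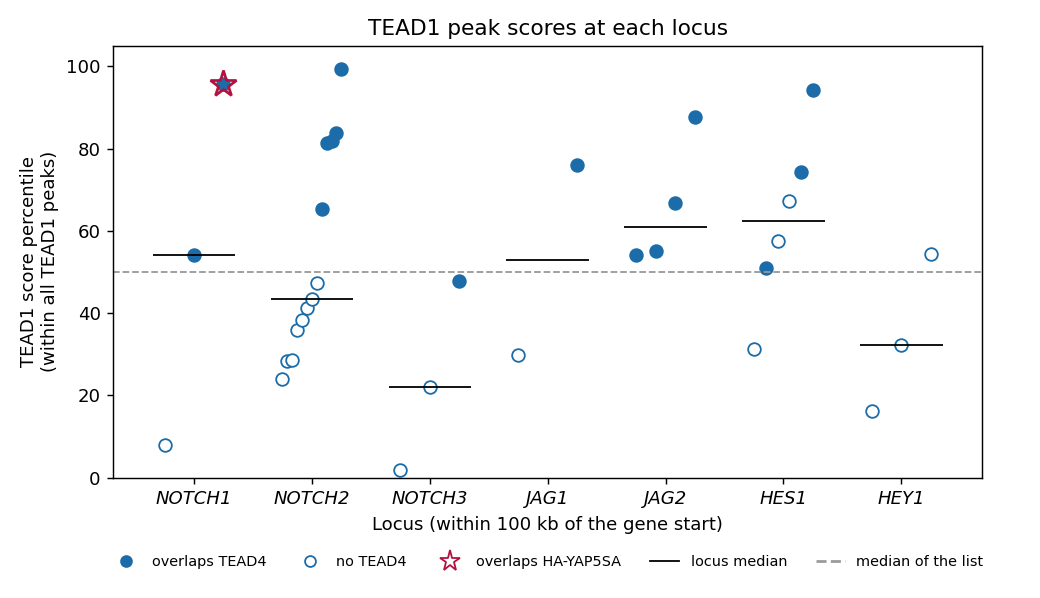
Each circle is 1 TEAD1 peak, placed by locus (x axis) and by the percentile of its score among all 38186 TEAD1 peaks (y axis), and the circles of a locus are ordered by score. Filled circles overlap TEAD4, the star marks the overlap with HA-YAP5SA at NOTCH1, short lines are locus medians and the dashed line is the list's median. All filled circles but the one at NOTCH3 lie above the dashed line.

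The TEAD1 scores of the 7 loci together followed those of the whole list. Their median was 187 (range 81.9 to 1780), at the 52.5th percentile, and the median of the TEAD1 list was 177. The highest-scoring 10% of the TEAD1 list held 3 of the 34 (8.82%), against a background of 10.0%. For TEAD4, the median was 146 at the 7 loci, at the 43.9th percentile (23.9 without NOTCH2), and 162 in the whole list, and 4 of 17 peaks (23.5%, interval 6.81 to 49.9%) were in the highest-scoring 10% of their list, against a background of 10.0%. By locus, the median TEAD1 percentile was 22.1 at NOTCH3, 32.2 at HEY1, 43.4 at NOTCH2, 53.0 at JAG1, 54.1 at NOTCH1, 61.0 at JAG2 and 62.4 at HES1. The ranges of loci next to each other in this order all overlapped. Those of NOTCH3 (1.81 to 47.9) and JAG2 (54.1 to 87.7) did not.

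TEAD4 was listed at 16 of the 34 TEAD1 peaks of the Notch loci (47.1%, interval 29.8 to 64.9%), against 30.6% of all TEAD1 peaks. The TEAD1 peaks with TEAD4 at these loci had a median score of 336, and the 18 without had a median of 126. In the whole TEAD1 list these medians were 452 and 136. By score, TEAD4 was present at 3 of 3 Notch peaks in the highest-scoring 10% of the TEAD1 list (background 97.0%), at 12 of 15 between the 50th and the 90th percentile (80%, interval 51.9 to 95.7%, background 44.7%) and at 1 of 16 below the median (6.25%, interval 0.158 to 30.2%, background 5.98%). In the middle class the Notch peaks had a median TEAD1 score of 263, against 286 for all peaks of that class. The 3 peaks without TEAD4 in the middle class were 2 of HES1 and the highest of HEY1. Most of the 12 with TEAD4 were at NOTCH2 and JAG2. Shares by class were not recomputed under other settings or without single loci.

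**Figure D4:**
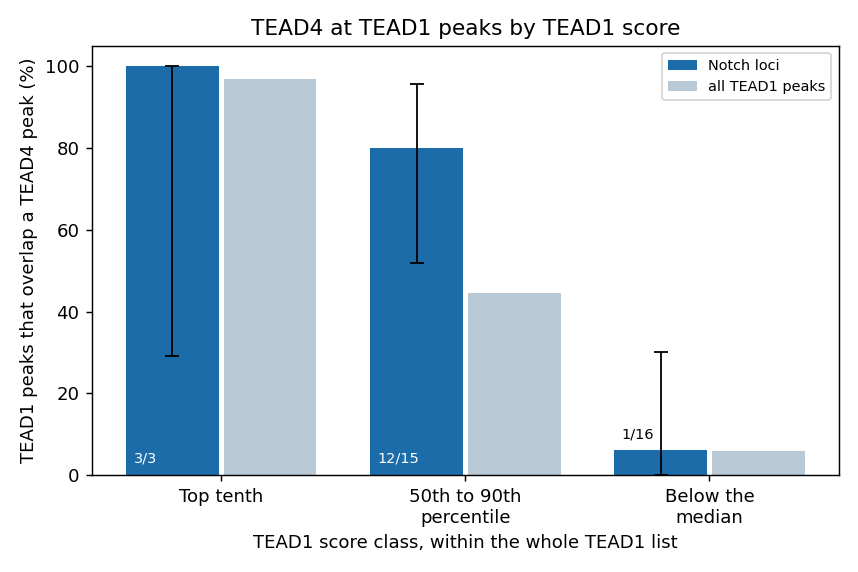
Bars give the share of TEAD1 peaks that overlap TEAD4 (y axis, %) in 3 classes of TEAD1 score (x axis), for the Notch loci on the left of each pair and all TEAD1 peaks on the right. Error bars are exact 95% binomial intervals, which treat the peaks of a locus as independent, and the fractions are peak counts. In the middle class 12 of 15 Notch peaks (80%) had TEAD4, against 44.7% of all peaks.

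In the other direction, 16 of the 17 TEAD4 peaks of the Notch loci lay on a TEAD1 peak (94.1%, interval 71.3 to 99.9%), against 97.1% of all TEAD4 peaks. The 4 pairs with the highest TEAD1 scores were also the 4 with the highest TEAD4 scores: those 42.3 kb upstream of NOTCH2, 26.5 kb upstream of NOTCH1, 46.4 kb upstream of HES1 and 80.7 kb downstream of JAG2. The pair next to the NOTCH2 start came after these by both scores. The lowest pair by both scores was the one at NOTCH3.

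**Figure D5:**
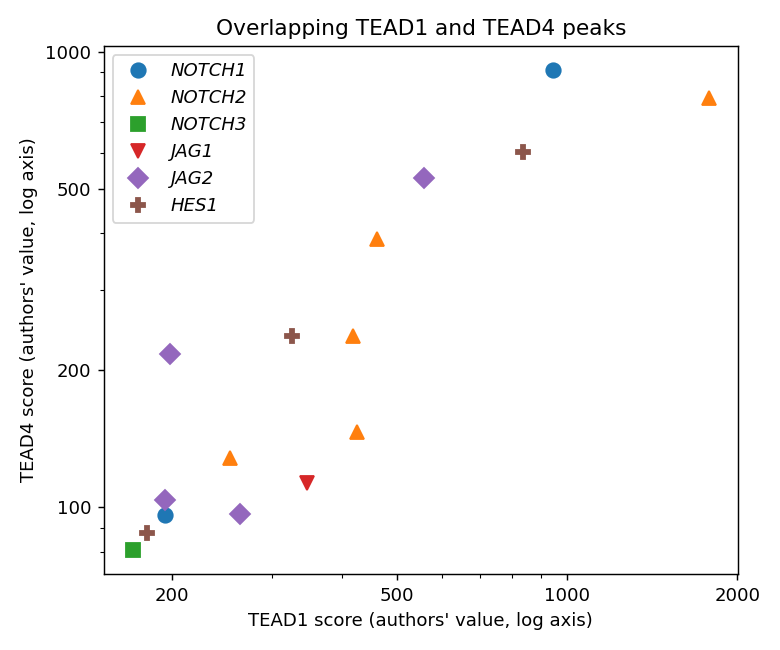
Each symbol is 1 of the 16 overlapping pairs, with the TEAD1 score on the x axis and the TEAD4 score on the y axis (authors' scores, log axes). NOTCH1 has the highest TEAD4 score, 911, NOTCH2 the highest TEAD1 score, 1780, and NOTCH3 the lowest of both.

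The HA-YAP5SA, YAP and TAZ lists were empty or nearly so at these genes, as they were in most 200 kb windows. HA-YAP5SA overlapped 1 of 34 TEAD1 peaks (2.94%, interval 0.0744 to 15.3%), against 2.06% of all TEAD1 peaks, and 1 of 17 TEAD4 peaks (5.88%, interval 0.149 to 28.7%), against 6.28% of all TEAD4 peaks. YAP overlapped 0 of 34 TEAD1 peaks (interval 0 to 10.3%), against 0.210% of all TEAD1 peaks, and 0 of 17 TEAD4 peaks (interval 0 to 19.5%), against 0.624% of all TEAD4 peaks, so an overlap at the background rate would not be detectable over so few peaks. By TEAD1 score, HA-YAP5SA was at 1 of 3 Notch peaks in the highest-scoring 10% (background 17.3%), at 0 of 15 between the 50th and the 90th percentile (background 0.773%) and at 0 of 16 below the median (background 0.0471%). An HA-YAP5SA peak was held by 1 of 7 loci, against 4.87% of 200 kb windows. A YAP peak was held by 0 of 7, against 0.885%, and a TAZ peak by 0 of 7, against 0.336%. The nearest peak of the YAP antibody was 740 kb from the NOTCH2 start, 2772 kb from that of HES1 and farther from the other starts. TAZ peaks were no closer than 755 kb, at NOTCH2, and the TAZ list held no peak on the assembled chromosomes of NOTCH1 and HES1, 9 and 3. Both lists were clustered, with up to 28 YAP peaks and up to 16 TAZ peaks in a single 200 kb window. Since TAZ overlapped 0 of all 38186 TEAD1 peaks, its absence here is not particular to the Notch loci.

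By distance, 20 of the 34 TEAD1 peaks lay within 50 kb of a start and 3 within 10 kb, those 3 being 2 at NOTCH2 and 1 at HES1. Of the 34, 22 lay upstream and 12 downstream. No background over other gene starts was computed for these distances or sides, so they do not show a closeness particular to the Notch genes. NOTCH1, JAG1 and HES1 had upstream TEAD1 peaks only, JAG2 downstream ones only, and NOTCH2, NOTCH3 and HEY1 both. The TEAD1 peaks of the 7 loci had a median width of 612 bp (range 353 to 1229 bp), against 552 bp in the whole list.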

How the data were processed

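Peak lists from HuCCT1 ChIP-seq were used, with 1 library per antibody. Bowtie2 and hg19 are named in the submitters' processing notes. Peak names begin with MACS, per the deposited files. No source used here gives the caller's version, threshold or control. The score of each peak is the authors' own, on an unstated scale, so it was used only to rank peaks within a list. TEAD1 and TEAD4 starts were taken as counted from 1, and the other starts were raised by 1.

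Starts of the 7 genes were given with the rule on hg19. Gene strands came from the RefSeq promoter table (HEY1 from general knowledge). Gene names near JAG2, the only locus whose neighbours were looked up, came from the GRCh38.p14 RefSeq table. Peaks sharing at least 1 bp counted as overlapping. Windows of 200 kb ran from each chromosome's beginning to its last TEAD1 peak, on chromosomes 1 to 22, X and Y. Genes and choices were made with earlier results of these data known. Named peaks are those nearest a start, those with the highest score per locus, and all of HA-YAP5SA, YAP and TAZ. Further Notch pathway genes, which need hg19 starts, and peak sequences were not analysed here. Window counts were checked on simulated peaks planted inside and just outside the limit. The overlap check used TEAD1 peaks that were shifted slightly or moved off the listed chromosomes. It therefore did not probe the 1 bp limit or the counting of starts. Alternatives were other windows (50 and 200 kb), overlap rules (50% of the shorter peak, centres within 500 bp), a score threshold, ranking within chromosomes and leaving out each locus. Tools were pandas 2.3.3, NumPy 2.4.6, SciPy 1.17.1 and matplotlib 3.10.9 under Python 3.11.15.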

Additional observations from a re-analysis of the deposited data

How the results depend on the processing

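Peak counts moved with the distance allowed. With 50 kb in place of 100 kb the 7 loci held 20 TEAD1 and 11 TEAD4 peaks, and with 200 kb they held 64 and 26. Among peaks at or above their list's median score there were 18 TEAD1, 8 TEAD4 and 0 HA-YAP5SA peaks, so the share of TEAD1 peaks with HA-YAP5SA was then 0%. YAP and TAZ had 0 peaks under every alternative. The share of TEAD1 peaks with TEAD4, 47.1% as reported, was 55% within 50 kb, 39.1% within 200 kb and 44.4% with both lists at or above their median score. The share of TEAD4 peaks on TEAD1 was 100% within 50 kb and also with both lists limited to peaks at or above their median score. Leaving out each locus in turn, TEAD4 was at 40 to 52.4% of TEAD1 peaks, HA-YAP5SA at 0 to 4.76% (0% without NOTCH1), and TEAD1 at 91.7 to 100% of TEAD4 peaks (100% without JAG2). The median percentile was 47.6 to 54.1 for TEAD1 (52.5 with all loci) and 23.9 to 56.7 for TEAD4 (43.9 with all loci), whose lowest value was without NOTCH2. The other overlap rules left all 3 shares as they were. No paired analysis was possible because each group had 1 library. Depth is unknown, and binding below the listed scores cannot be seen.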
